A study of Rattus norvegicus with 6 samples.

Results

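The comparison described here is that of INS-1 cells induced to make a misfolded insulin with the same cells left uninduced, read across all genes that the arrays name. It rests on 4 of 6 arrays, which were chosen by their titles as untreated or treated with doxycycline (Dox), with 2 arrays per group, and it covers 12603 genes. INS-1 cells come from a rat insulinoma and stand in for pancreatic β-cells in many studies. All cells belonged to 1 clone (#4S2), in which Dox switches on a fusion of GFP to insulin 2 that carries C96Y, the Akita mutation. Both groups were kept in the same medium with G418 and hygromycin. Per the labels, treated cells had 4 μg/ml Dox for 48 h, whereas the study's methods name a lower concentration. Untreated cells carried the same gene without Dox. No cells without the mutant gene were given Dox, so that effects of the drug, of making a secreted GFP fusion protein and of the mutation cannot be told apart. The other 2 arrays came from cells that also had 4μ8c (5 μM), which blocks the IRE1 endoribonuclease. They entered the test as a further group that shared the estimate of the spread, and their own comparison is not described. The study ran 2 independent experiments, and the labels' replicate numbers were read as experiments 1 and 2, so that each value below is the difference between Dox and untreated cells of one experiment or the mean of both. Nothing in the labels says whether the experiments used separate cultures, and p-values measure the spread between these arrays.

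Insulin folds in the endoplasmic reticulum (ER) as proinsulin, held by disulfide bonds, and the C96Y mutation removes a cysteine that takes part in one of them. Misfolded proteins in the ER activate the sensors IRE1, PERK and ATF6, whose transcription factors XBP1, ATF4 and cleaved ATF6 raise genes of folding, degradation, amino acid supply and secretion. The usual ER stress lists hold the first of these, namely ER chaperones, ER-associated degradation (ERAD), the PERK-ATF4 branch, amino acid synthesis and transport, and aminoacyl-tRNA synthetases. They serve below as a measure for the rest of the response.

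Values are log2 signals that the authors gave relative to a centre. Over the 3 arrays of experiment 1 the median was 0 in 100% of probesets. Over the 3 arrays held here of experiment 2 it was 0 in 0.836%, and how those values were centred is not given in the sources used here. Differences within an experiment can be read from them, but signal levels, background and detection cannot, so that no gene is called expressed or absent. In experiment 1, 25.46% of the 25476 probesets were exactly 0 on all 3 arrays, and untreated and Dox were equal in 34.01%, compared with 0.184% in experiment 2. Of the genes, 3178 (25.22%) had a difference of exactly 0 in experiment 1, and none of these was called. The cause of these ties was not tested. Dox replicate 2 stood apart, with an SD of 0.176 over all probesets against 0.0502 to 0.118 on the other 5 arrays, and with a gap between 5′ and 3′ spike-in probesets that changed by -0.53 (median of 8 pairs, log2, against untreated of the same experiment), against -0.09 for Dox replicate 1 and -0.26 for Dox+4μ8c replicate 2. The same gap in the cells' own RNA changed by 0.002 for GAPDH and -0.22 for β-actin on Dox replicate 2, against 0.03 and 0.14 on Dox replicate 1. Neither insulin gene was called, with log2 changes of -0.03 for Ins1 (adjusted p = 0.74) and -0.13 for Ins2 (adjusted p = 0.21, -0.17 and -0.09 in the 2 experiments). Whether the Ins2 probeset reads the induced transcript is not given in the sources used here, so that it does not check the labels.

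With Dox, 557 genes rose (4.42% of those tested) and 253 fell (2.01%) at a limma adjusted p under 0.05, each with the same direction in both experiments (6.43% either way). The test favours genes whose differences agree between the experiments, so that this shared direction is not a separate check. Most of the called changes were small. The median log2 change of the risen genes was 0.39 (1.31 fold), and 437 of them were less than 1.5 fold higher. The median of the fallen genes was -0.31 (1.24 fold), and 232 of them were less than 1.5 fold lower. The large changes were mostly rises. At least 1.5 fold there were 122 genes higher (0.968%) and 22 lower (0.175%), at least 2 fold 28 and 3, and at least 4 fold 3 and 1, the last being Gcg. In all, 64.9% of genes stayed within 0.1 of 0 on the log2 scale, and the 50 largest changes held 25.42% of the summed squared change. The smallest change called was 0.215 upwards and 0.212 downwards, so that smaller changes could not be called with these arrays. Without the experiment as a term in the fit the counts were 303 higher and 137 lower. Fits that left out 1 array gave 177 and 62 without untreated replicate 1, 223 and 61 without untreated replicate 2, 1104 and 655 without Dox replicate 1, and 333 and 94 without either Dox+4μ8c array.

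Rises were alike in the 2 experiments, and falls less so. Of 130 genes at least 1.5 fold higher in experiment 1, all were higher in experiment 2 as well, with a median log2 difference of 0.69 there. Picked in experiment 2 and read in experiment 1, 129 of 130 were higher, with a median of 0.71. All 30 genes at least 1.5 fold lower in experiment 1 were lower in experiment 2, with a median of -0.64. However, of 70 genes at least 1.5 fold lower in experiment 2, 39 were lower in experiment 1 (55.7%), with a median of -0.04. The largest gap was that of Cirbp, a cold-inducible RNA-binding protein gene, with differences of 0.24 and -1.34 in experiments 1 and 2. Bod1l1 had 0.39 and -1.12, Golga4, a golgin of the trans-Golgi, 0.52 and -0.75, Nedd1, a centrosomal protein gene, 0.04 and -1.10, and Tpr of the nuclear pore 0.12 and -0.92. None of these 5 genes was called. Against untreated cells of the same experiment, the Dox+4μ8c array of experiment 2 had Cirbp at -0.16, Bod1l1 at 0.01, Golga4 at -0.29, Nedd1 at -0.24 and Tpr at -0.03. The part of the spike-in gap of Dox replicate 2 in these values was not tested. Across all genes the differences of the 2 experiments had a Pearson's r of 0.632, as a description, since genes are not independent replicates.

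**Figure D1:**
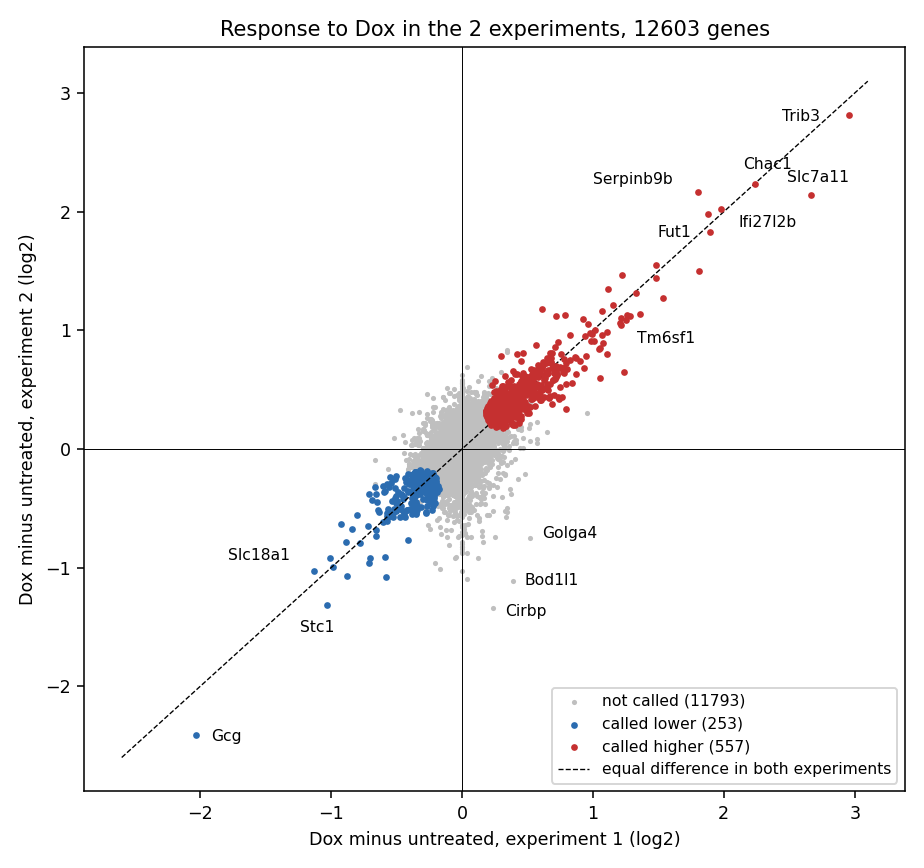
Each point is 1 of 12603 genes, with the log2 difference between Dox and untreated cells in experiment 1 (x axis) and experiment 2 (y axis). The 557 genes called higher and the 253 called lower lie near the line of equal differences, while Cirbp, Bod1l1 and Golga4, which were not called, lie far below it. The test itself favours genes near this line.

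The usual ER stress lists held 118 tested genes, of which 81 rose (68.6%) and none fell. Of all genes tested, 12319 (97.7%) were neither in these lists nor in the 4 lists of the secretory pathway. Of the 557 risen genes, 416 (74.7%) were outside both, and of the 253 fallen genes 252 (99.6%). Of the 122 genes at least 1.5 fold higher, 50 were in the usual lists and 16 in the secretory lists. The other lists, which cover 1868 further genes of membrane, signalling, growth, metabolism and structure, had 75 risen (4.01%) and 66 fallen (3.53%) members. Genes in no list numbered 10451, with 341 risen (3.26%) and 186 fallen (1.78%). Where a called gene had several probesets, they had the same direction in 132 of 134 risen and 63 of 63 fallen genes. Calls were made on the mean of these probesets, which favours genes whose probesets agree.

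**Figure D2:**
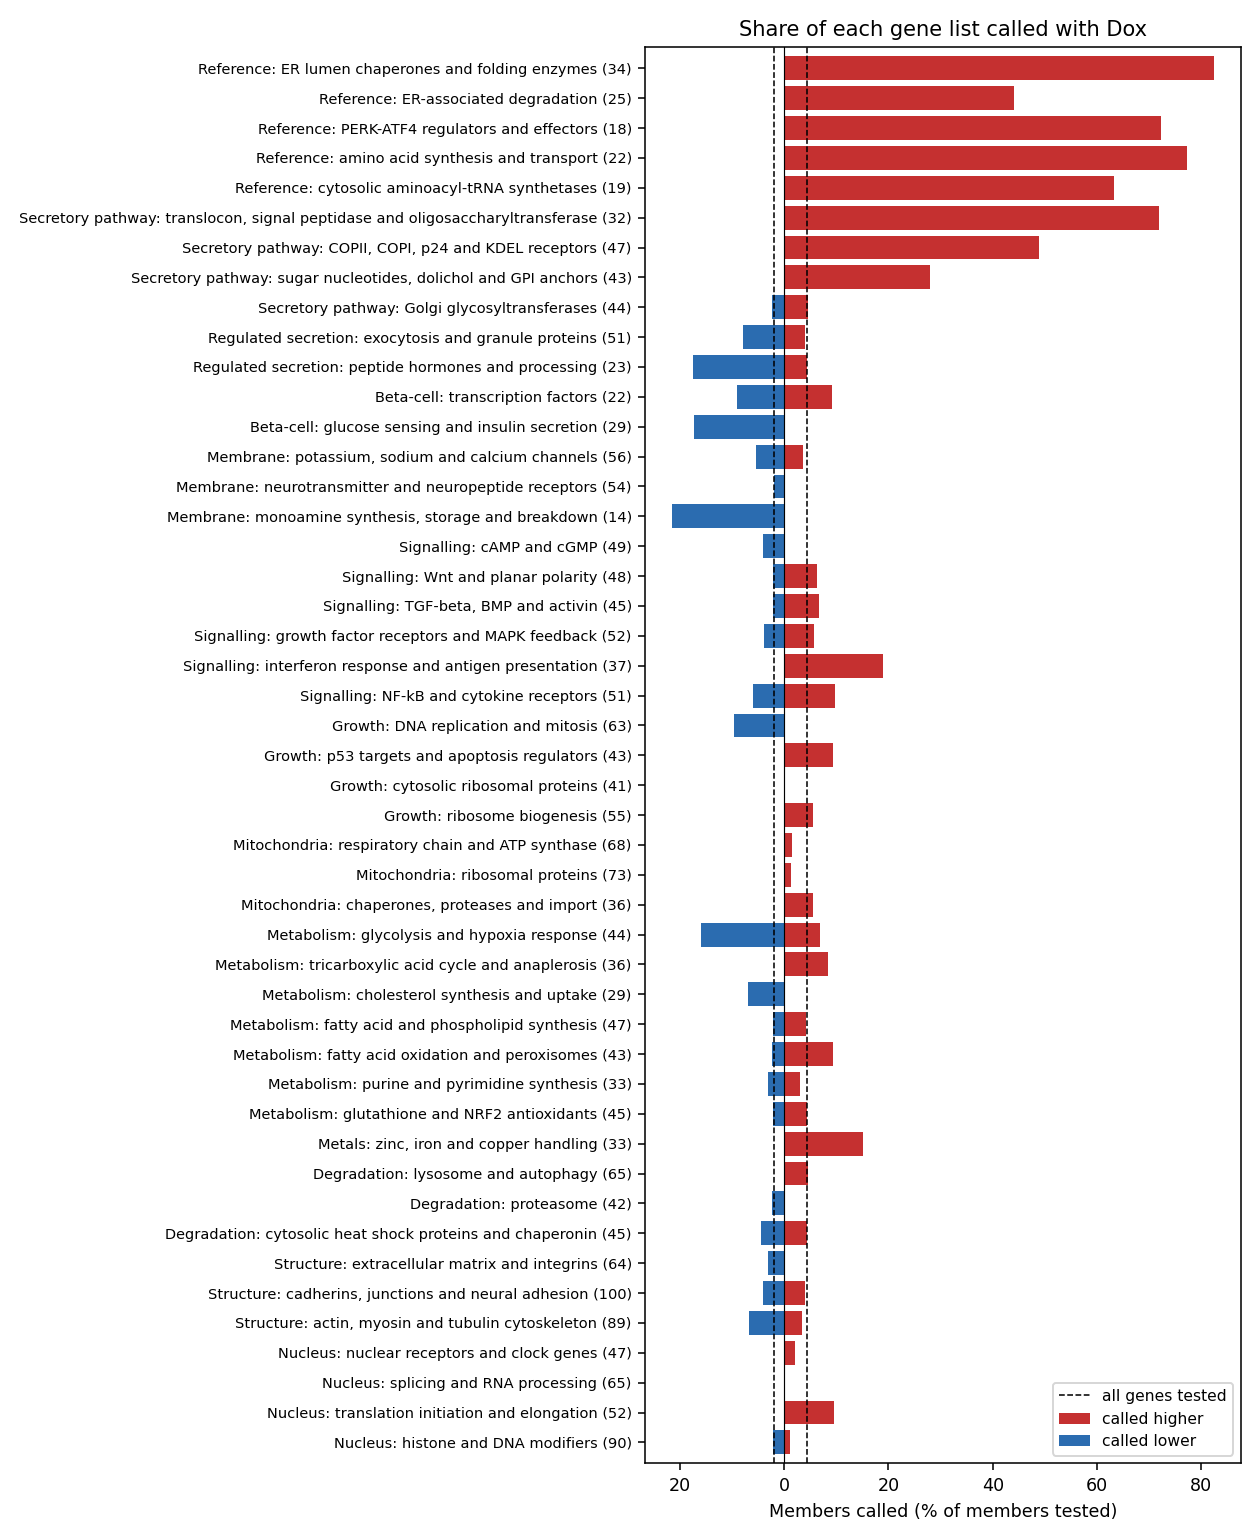
For each list of genes the bars give the percent of tested members called higher (to the right) and lower (to the left) with Dox, with the number of members tested in brackets and the percent over all genes as dashed lines (4.42% and 2.01%). The lists of the early secretory pathway stand beside those of the usual ER stress response, and lists with more falls than all genes include hormones, glucose sensing, monoamines and glycolysis.

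Promoter sequences are shown first for genes that rose and hold one of the elements through which the sensors act. They are from RefSeq (rat assembly GRCr8), run 5′ to 3′ on the strand of the gene, and cover part of a window of 250 bases before to 50 after its first listed start. Capitals mark the match. ERSE, bound by ATF6 with NF-Y, was searched as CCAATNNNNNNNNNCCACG, ERSE-II as ATTGG and CCACG with any 1 base between them, the core of the UPRE, bound by XBP1 and ATF6, as TGACGTG, and the core of the element of ATF4 with C/EBP factors as TGATGNAA, each on both strands.
Creld2 (ERSE on the opposite strand, chr7:121789209-121789287, + strand): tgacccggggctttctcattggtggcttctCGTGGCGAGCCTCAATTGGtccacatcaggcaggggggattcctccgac
Dnajc3 (ERSE, chr15:102432504-102432582, + strand): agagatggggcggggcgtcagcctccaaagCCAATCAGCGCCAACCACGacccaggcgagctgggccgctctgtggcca
Hspa5 (ERSE, chr3:38452943-38453015, + strand): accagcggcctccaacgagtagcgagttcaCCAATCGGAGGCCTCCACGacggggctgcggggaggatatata
Herpud1 (ERSE-II, chr19:10614791-10614861, - strand): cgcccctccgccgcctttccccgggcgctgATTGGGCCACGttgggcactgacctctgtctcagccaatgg
Ggct (ERSE-II, chr4:85459593-85459663, - strand): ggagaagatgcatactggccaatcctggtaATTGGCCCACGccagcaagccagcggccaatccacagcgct
Dnajb11 (ERSE-II, chr11:91672800-91672840, - strand): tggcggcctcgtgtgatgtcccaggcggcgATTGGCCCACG
Kdelr3 (UPRE core on the opposite strand, chr7:112959502-112959568, + strand): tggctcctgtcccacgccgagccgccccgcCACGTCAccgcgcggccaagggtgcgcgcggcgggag
Selenom (UPRE core, chr14:82619203-82619248, + strand): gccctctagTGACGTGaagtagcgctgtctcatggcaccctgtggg
Txndc11 (UPRE core, chr10:5022433-5022469, + strand): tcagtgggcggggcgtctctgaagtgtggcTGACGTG
Trib3 (ATF4 core on the opposite strand, chr3:161275534-161275584, - strand): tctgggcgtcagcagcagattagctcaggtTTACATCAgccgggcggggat
Chac1 (ATF4 core on the opposite strand, chr3:126795934-126796001, + strand): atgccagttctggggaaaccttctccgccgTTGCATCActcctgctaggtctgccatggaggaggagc
Serpinb9b (ATF4 core on the opposite strand, chr17:31595077-31595144, - strand): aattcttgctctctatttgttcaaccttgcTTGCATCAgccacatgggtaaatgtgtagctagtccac

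Promoters were matched for 10401 tested genes, 479 of them risen and 198 fallen. ERSE was rare, and nearly all its bearers among risen genes belong to ER folding. It was in 17 of the 10401 promoters (0.163%), and 8 of these 17 genes rose, compared with 4.42% of all genes tested. The 8 were Creld2, Dnajc3, Hspa5, Hsp90b1, Ero1b, Calr, Canx and Xbp1, named in full after their values were seen. ERSE-II was in 11 promoters (0.106%), and 7 of these genes rose: Herpud1, Ggct, Dnajb11, Hyou1, Nucb1, Prkcz and Rcl1, also named after their values were seen. Ggct, which encodes γ-glutamylcyclotransferase of glutathione turnover, does not belong to ER folding and was one of the largest rises, at 1.12 and 1.35 in the 2 experiments (mean 1.23, SE 0.07, adjusted p = 0.00097). No promoter of a fallen gene held either element. Elements this rare would seldom be met among 198 promoters, so that this gives no contrast with the risen genes. The UPRE core was in 7.52% of promoters of risen genes, 4.04% of those of fallen genes and 2.38% of all tested. The ATF4 core was in 5.85%, 1.01% and 1.96% respectively, and in 16.5% (17 of 103) of genes at least 1.5 fold higher. Besides Trib3 and Chac1 it lay before Serpinb9b, a serpin gene outside all the lists written here. Of the elements searched for comparison, the core of the NRF2 element (TGACNNNGC) was in 15.9% of promoters of risen genes and 14.7% of all tested, and ACGTG, the core of the hypoxia element, in 39.2% and 24.8%. In genes at least 1.5 fold higher ACGTG was in 50.5% (52 of 103). ACGTG lies within TGACGTG, so that every match to the UPRE core is also counted there. An ERSE or ERSE-II match followed by T holds ACGTG too, on the opposite strand, as in Herpud1. ACGTG is thus not independent of the elements of the sensors, and which factors act through it was not tested. UPRE matches make up a part only: among risen genes 188 promoters held ACGTG and 36 the UPRE core. Over all 27457 promoters of the table the shares were 0.0765% for ERSE, 0.0546% for ERSE-II, 1.88% for the UPRE core, 3.82% for the ATF4 core, 12.2% for the NRF2 core and 19.7% for ACGTG. These shares are descriptions, and a match of letters is not a bound site.

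**Figure D3:**
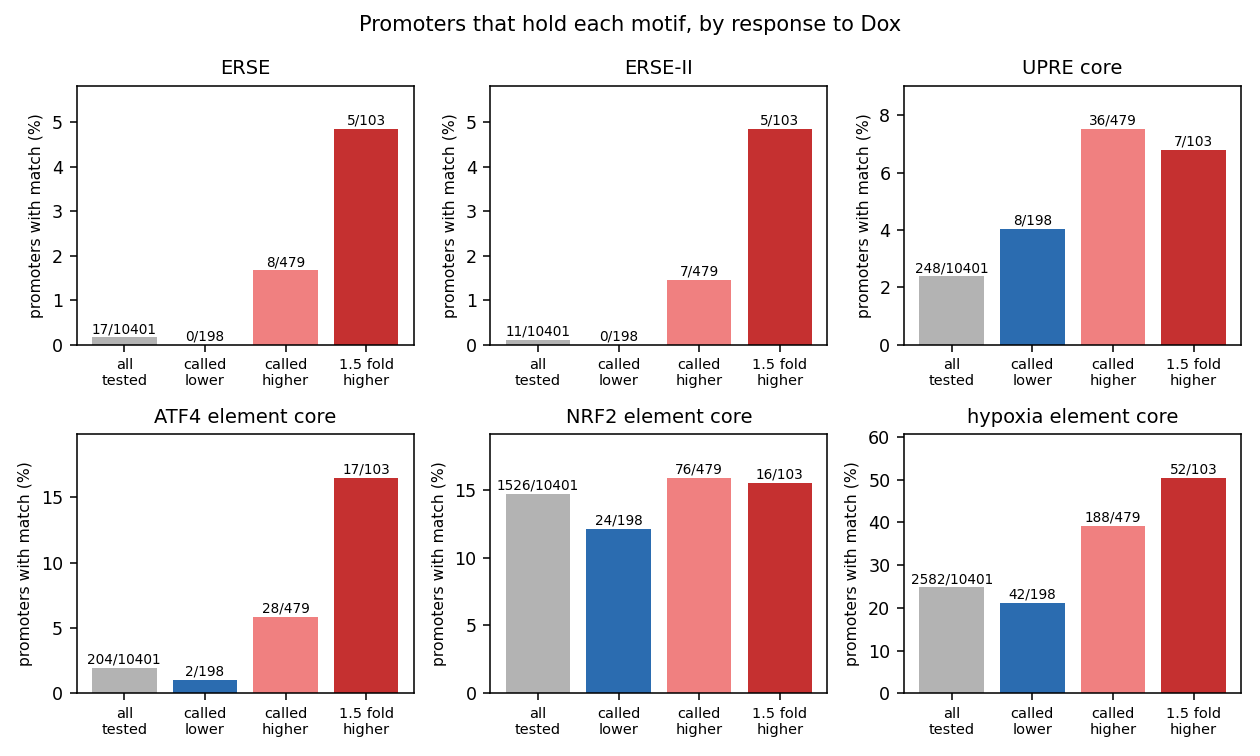
Each panel gives the percent of promoters (250 bases before to 50 after the start) that hold 1 element, for all genes tested, genes called lower, genes called higher and genes at least 1.5 fold higher, with counts above the bars and a scale of its own. ERSE and ERSE-II were each in 5 of 103 genes at least 1.5 fold higher, the ATF4 core in 17 and the hypoxia element core in 52. The NRF2 core varied little between groups.

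The early secretory pathway rose from the entry of proteins into the ER up to their transport to the Golgi. Golgi enzymes had shares of calls near those of all genes, of which 4.42% rose and 2.01% fell. Of 32 genes of the translocon, signal peptidase and oligosaccharyltransferase, 23 rose and none fell, and all 32 were higher in both experiments (median 0.39, against 0.01 for all genes). Ostc and Magt1, subunits of the oligosaccharyltransferase, were at 0.82 (adjusted p = 0.0032) and 0.94 (adjusted p = 0.018). Magt1 differed between the experiments, with 1.24 and 0.65. Ssr1 of the translocon-associated complex was at 0.71, and the signal peptidase subunits Sec11c and Spcs3 were both at 0.64. Of 47 genes of COPII, COPI, p24 and KDEL receptors, which carry proteins between the ER and the Golgi, 23 rose and none fell (median 0.25). Kdelr3, which returns ER proteins from the Golgi, read -0.06 and 0.02 in untreated cells and 0.93 and 0.99 with Dox, a change of 0.98 (SE 0.05, adjusted p = 0.00089). Tmed3 and Tmed9 of the p24 family were at 0.89 and 0.64, and the COPII coat gene Sec23b at 0.68. Of 43 genes for sugar nucleotides, dolichol and GPI anchors, 12 rose and none fell. Among them were Piga, which starts GPI anchor synthesis, at 1.01 (0.92 and 1.10 in the 2 experiments, adjusted p = 0.0016), Gmds and Gmppb, which make GDP-fucose and GDP-mannose, at 0.77 and 0.74, and Slc35b1, an ATP carrier of the ER membrane, at 0.59. Of 44 Golgi glycosyltransferases and related enzymes 2 rose (4.55%) and 1 fell (2.27%), with a median of 0.00. The 2 that rose included Fut1, a fucosyltransferase, which at 1.93 was among the largest changes of all, and the sialyltransferase gene St3gal1 fell by 0.49 on the log2 scale. The 23, 23 and 12 risen genes became 8, 8 and 6 without untreated replicate 1, and 14, 11 and 8 without untreated replicate 2. The COPII list had 15 without Dox replicate 2 or either Dox+4μ8c array, and Magt1, Slc35b1 and Fut1 did not pass without the experiment term.

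Large rises also occurred outside folding and secretion. Ifi27l2b, a relative of interferon-induced genes, read -1.97 and -0.94 in untreated cells and 0.00 and 1.08 with Dox, and Serpinb9b read -1.80 and -1.52 against 0.00 and 0.65. In each experiment Dox was above untreated by 1.8 or more. Their changes were 2.00 (adjusted p = 8.6e-05) and 1.99 (adjusted p = 0.0012). Tm6sf1, a transmembrane protein gene, rose by 1.13 (1.22 and 1.04), and Oat, ornithine aminotransferase, by 1.04 (1.11 and 0.98). Plpp5, a phospholipid phosphatase gene, was at 0.98 in each experiment. Saraf, which limits store-operated calcium entry from its place in the ER membrane, read -0.36 and -0.06 without and 0.65 and 0.85 with Dox, a change of 0.96 (SE 0.07, adjusted p = 0.0017). Xpot, the exportin for transfer RNA, rose by 0.94, the zinc finger gene Zfp9 by 0.94, the uncharacterised LOC102547700 by 0.95 and Ccdc134 by 0.92 (0.72 and 1.12). Stbd1, a glycogen-binding protein gene, was at 0.82, and Cox6a2, an isoform of a cytochrome c oxidase subunit typical of heart and skeletal muscle, at 0.69, the 1 risen gene among 68 of the respiratory chain. Without the experiment term Ifi27l2b, Xpot, Stbd1 and Cox6a2 did not pass. Ifi27l2b and Serpinb9b belong to families of closely related genes, whose probesets can share signal.

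Of 33 genes of zinc, iron and copper handling, 5 rose (15.2%, compared with 4.42% of all genes) and none fell. The 5 are zinc transporters, a grouping made after their values were seen. Slc30a7 and Slc30a5, which move zinc into secretory compartments, were at 0.71 (0.74 and 0.68 in the 2 experiments, adjusted p = 0.0026) and 0.59 (0.58 and 0.61, adjusted p = 0.0068). Slc39a7, which releases zinc from the ER, was at 0.67 (0.71 and 0.63, adjusted p = 0.011) and Slc39a11 at 0.37 (adjusted p = 0.021). The fifth was Slc39a13 at 0.28, named after its value was seen because the count is small. Leaving out either Dox+4μ8c array or untreated replicate 2 left 3 of them called. There were 8 without Dox replicate 1, and 1, Slc30a7, without untreated replicate 1.

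Interferon-related genes and genes of inflammatory signalling had larger shares of rises than all genes (4.42%), though the numbers were small. Of 37 genes of the interferon response and antigen presentation, 7 rose (18.9%) and none fell (median 0.08). After Ifi27l2b the largest was RT1-M3-1, a non-classical class I histocompatibility gene, which read -0.23 and -0.13 without and 0.50 and 0.77 with Dox, a change of 0.82 (adjusted p = 0.0018). Bst2, which tethers virus particles, was at 0.60 and Ifi44l at 0.50, with differences of 0.50 and 0.51 in the 2 experiments. The 7 became 4 without the experiment term. Of 51 genes of NF-kB and cytokine receptors 5 rose (9.8%) and 3 fell (5.88%, compared with 2.01% of all genes). Irak3, an inhibitor of signalling by interleukin-1 and Toll-like receptors, was at 0.82 (0.86 and 0.77, adjusted p = 0.0017) and the chemokine gene Cxcl2 at 0.48. Both interleukin-1 receptors fell: Il1r2, the decoy form, by 0.67 (adjusted p = 0.0018) and Il1r1, the signalling form, by 0.44 (adjusted p = 0.0091). In the fit that omits the experiment term 2 rose and 1 fell, and Il1r2 did not pass. Counts were 3 and 2 without untreated replicate 1, either Dox+4μ8c array or Dox replicate 2, 2 and 1 without untreated replicate 2, where Cxcl2 and Il1r1 did not pass, and 10 and 6 without Dox replicate 1.

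Regulators of cell death and growth showed changes in single genes, given beside the 4.42% of all genes that rose and the 2.01% that fell. Of 43 p53 targets and apoptosis regulators 4 rose (9.3%) and none fell. Hrk, a BH3-only gene, was at 0.73 (0.78 and 0.68, adjusted p = 0.0052). The others were the inflammatory caspase gene Casp4 at 0.45, Htra2 at 0.30 and Txnip, which binds thioredoxin, at 0.27. Without the experiment term none of the 4 passed, and Hrk alone passed without either untreated array. There were 2 without either Dox+4μ8c array and 6 without Dox replicate 1. Among genes of growth factor signalling, Myc rose by 0.61, Dusp14, a phosphatase of MAP kinases, by 0.59 and Jun by 0.46, while Igf1r, the IGF-1 receptor gene, fell by 0.46 on the log2 scale. Myc and Dusp14 did not pass without the experiment term, Dusp14 and Jun without untreated replicate 1, and Igf1r without untreated replicate 2. In the TGF-β family Inhbe, which encodes the βE chain of activin, read -0.42 and -0.44 without and 0.25 and 0.37 with Dox, a change of 0.74 (adjusted p = 0.0024), and Gdf15 rose by 0.46, a call that was lost without either untreated array. Inhba, which encodes the βA chain, was lower at -0.35 (-0.22 and -0.48, adjusted p = 0.037), a call that was lost in most of the other fits, among them the 1 without the experiment term and those without either untreated array. Of 48 genes of Wnt signalling and planar polarity 3 rose (6.25%) and 1, Wnt4, fell by 0.84 (2.08%). The 3 rises were Vangl1 at 0.48, Prickle1 at 0.36 and Wls, which carries Wnt proteins to the surface, at 0.29. The 3 became 1 without the experiment term or either untreated array, and 6 without Dox replicate 1. Of 52 genes in the list of translation initiation and elongation 5 rose (9.62%). They were led by Xpot, the exportin for transfer RNA rather than a factor of either step, at 0.94 and by Eif1a at 0.64. None of the 5 passed without the experiment term, and 2 passed without either untreated or either Dox+4μ8c array.

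**Figure D4:**
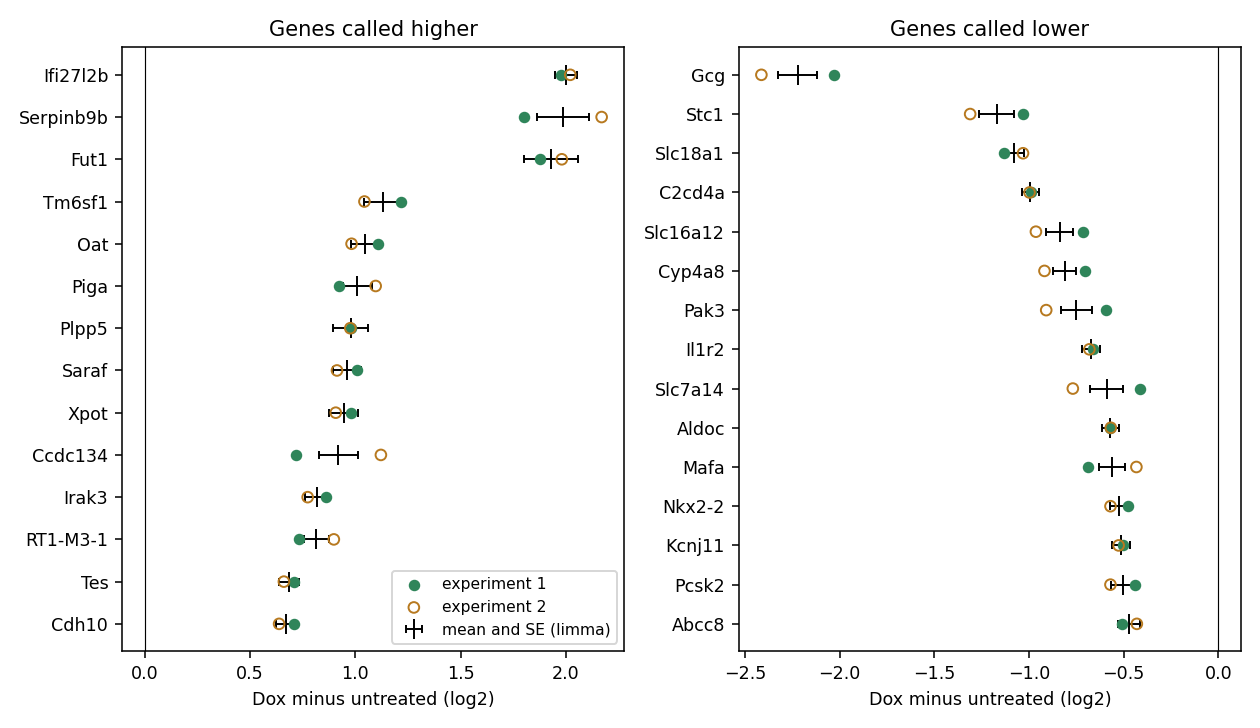
Log2 differences between Dox and untreated cells for genes called higher (left) and lower (right), with filled circles for experiment 1, open circles for experiment 2, and a bar with whiskers for the mean and its SE from limma. For every gene shown both experiments lie on the same side of 0, from Gcg at -2.03 and -2.41 to Ifi27l2b at 1.98 and 2.02. The genes were picked among called genes, which favours such agreement.

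The genes that fell were of other kinds. Gcg, the glucagon gene, read 1.39 and 0.67 in untreated cells and -0.65 and -1.74 with Dox in experiments 1 and 2, so that it was 4.67 fold lower (adjusted p = 0.00072). Glucagon is the hormone of α-cells, and none of the 4 other α-cell markers tested was called, with Ttr at -0.03, Irx2 at 0.15 and Pou3f4 at -0.06. Stc1, the stanniocalcin gene, was at -1.17, the vesicular monoamine transporter gene Slc18a1 at -1.08 and C2cd4a at -0.99. Slc16a12, a transporter of the monocarboxylate family, read 0.57 and 0.29 without and -0.14 and -0.67 with Dox, a change of -0.84 (SE 0.07, adjusted p = 0.003). Cyp4a8, a fatty acid hydroxylase of the cytochrome P450 family, was at -0.81 (-0.71 and -0.92), the neuronal calcium sensor gene Vsnl1 at -0.98 and the kinase gene Pak3 at -0.75 (-0.59 and -0.91). Pim2, a survival kinase, was at -0.57 in experiment 1 and -0.58 in experiment 2, and Car8, a carbonic anhydrase-related gene, at -0.64 and -0.53. Among other falls Arc, Nnat, Kirrel3 and Lynx1 were at -0.55, -0.53, -0.54 and -0.49, and the neuropeptide Y receptor gene Npy1r at -0.96. Without the experiment term Gcg, Slc18a1, Slc16a12, Cyp4a8, Vsnl1, Pak3, Arc, Nnat, Kirrel3 and Lynx1 did not pass. Arc, Nnat and Lynx1 did not pass without untreated replicate 1 either, nor Lynx1 without either Dox+4μ8c array.

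Several genes of β-cell function fell, while neither insulin gene was called. Of 29 genes of glucose sensing and insulin secretion 5 fell (17.2%) and none rose, compared with 2.01% of all genes that fell and 4.42% that rose. Both subunits of the ATP-sensitive potassium channel were among them. Kcnj11 read 0.27 and 0.14 in untreated cells and -0.23 and -0.39 with Dox, a change of -0.51 (SE 0.05, adjusted p = 0.0032), and Abcc8 read 0.15 and 0.13 against -0.36 and -0.30, a change of -0.47 (SE 0.06, adjusted p = 0.0084). C2cd4a and C2cd4b were at -0.99 and -0.48, and Ucp2, an uncoupling protein gene named after its value was seen because the count is small, at -0.28. Slc2a2, the glucose transporter GLUT2, was at -0.17 (adjusted p = 0.11). Of 22 β-cell transcription factors 2 fell (9.09%) and 2 rose (9.09%). Mafa, an activator of the insulin genes, read 0.00 and -0.04 without and -0.69 and -0.47 with Dox (adjusted p = 0.009), and Nkx2-2 was at -0.52 (-0.48 and -0.57, adjusted p = 0.0038). Bhlha15, a factor of secretory cells also known as MIST1, rose by 1.35 and Lmo4 by 0.54. Of 23 genes of peptide hormones and their processing 4 fell (17.4%) and 1 rose (4.35%, near the share of all genes). Beside Gcg and Stc1 these were Pcsk2, a protease that cuts proinsulin, at -0.50 (-0.44 and -0.57, adjusted p = 0.0075), and Iapp, the islet amyloid polypeptide, at -0.25 (adjusted p = 0.041), while Tac1 rose by 0.44. In the exocytosis list of 51 genes 4 fell (7.84%) and 2 rose (3.92%, near the share of all genes). The granuphilin gene Sytl4 was at -0.83 (-0.58 and -1.07), Rab3b at -0.47, the granule protein gene Vgf at -0.30 and Syt4 at 0.60. The 5 falls of glucose sensing became 2 without untreated replicate 1, where Kcnj11 still passed, and 3 without untreated replicate 2. The hormone and exocytosis lists each had 2 falls without the experiment term or untreated replicate 2, and Mafa did not pass without untreated replicate 1, nor Nkx2-2 without the experiment term. Iapp failed in both of these fits, and also without untreated replicate 2, Dox replicate 2 or either Dox+4μ8c array. Abcc8 was not called without either untreated array, nor Pcsk2 without untreated replicate 2. Tac1, Syt4, Sytl4 and Rab3b were not called without the experiment term, nor Vgf without either untreated array. The exocytosis list also had 2 without either Dox+4μ8c array, and 1 without untreated replicate 1.

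Genes of monoamines and of glycolysis and hypoxia had more falls than all genes, of which 2.01% fell and 4.42% rose. Of 14 genes for the synthesis, storage and breakdown of monoamines 3 fell (21.4%): Slc18a1, Maob, monoamine oxidase B, at -0.61 (-0.60 and -0.62, adjusted p = 0.0022), and Gch1, which starts the synthesis of the cofactor tetrahydrobiopterin, at -0.42 (adjusted p = 0.0063). There were 2 without the experiment term or untreated replicate 2. Of 44 genes of glycolysis and the hypoxia response 7 fell (15.9%) and 3 rose (6.82%). Aldoc, an aldolase, was at -0.57 in each experiment (untreated 0.57 and 0.33, Dox 0.00 and -0.24, adjusted p = 0.0024), Ak4, a mitochondrial adenylate kinase, at -0.68 and Mgarp, a mitochondrial protein gene, at -0.78. The other 4 were Eno2 at -0.39, Adm at -0.37, Tpi1 at -0.32 and Ndrg1 at -0.28. The 3 that rose were Fbp2, a fructose-bisphosphatase, at 0.64, Ddit4, an inhibitor of mTORC1 that also responds to ATF4, at 0.58 and the lactate transporter gene Slc16a1 at 0.37. Eno2, Adm, Tpi1, Ndrg1, Fbp2 and Slc16a1 were named after their values were seen. The 7 falls numbered 3 without the experiment term or untreated replicate 1, and 4 without either Dox+4μ8c array or untreated replicate 2, and the 3 rises became 0 without the experiment term. In the tricarboxylic acid list Pck2, mitochondrial phosphoenolpyruvate carboxykinase, rose by 0.72, and in that of fatty acid oxidation Cpt1a, which carries fatty acids into mitochondria, by 0.36 and Acaa2 by 0.38. Cpt1a and Acaa2 did not pass without either untreated array, nor Pck2 without the experiment term.

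In 4 lists of membrane and structural genes up to 4.0% of members rose and 3.12% to 6.74% fell, beside 4.42% and 2.01% of all genes. Of 56 channel genes 2 rose (3.57%) and 3 fell (5.36%), and the potassium channel-interacting protein gene Kcnip1 was at -0.70 (adjusted p = 0.0018) and Cacna1g, a T-type calcium channel, at -0.29, with Kcnk12 at 0.41 and Kcnn1 at 0.31, of which Kcnip1 alone passed without untreated replicate 1. Of 64 genes of the extracellular matrix and integrins 2 fell (3.12%), Fn1, fibronectin, at -0.78 and Bcam, a laminin receptor, at -0.68, and none rose. Both falls passed without any 1 array and without the experiment term. Of 100 adhesion genes 4 rose (4.0%) and 4 fell (4.0%). Amigo3 was at 0.79, the cadherin gene Cdh10 at 0.67 (0.71 and 0.64, adjusted p = 0.0019), Alcam at -0.54 and Flrt2 at -0.47, the last 2 of which did not pass without the experiment term and without untreated replicate 2, respectively. In the cytoskeleton list of 89 genes 3 rose (3.37%) and 6 fell (6.74%), and Tes, a protein of focal adhesions, was at 0.68 (0.71 and 0.66, adjusted p = 0.0016), Myo6, a myosin that moves towards the minus end of actin, at 0.53, Gsn, gelsolin, at -0.45 and Stmn2, which destabilises microtubules, at -0.42. These 6 falls were 0 without untreated replicate 1, 2 without either Dox+4μ8c array or untreated replicate 2, 3 without Dox replicate 2 and 12 without Dox replicate 1.

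Some large groups of genes had 1 direction in both experiments more often than all genes, of which 26.6% were higher and 24.8% lower in both. Genes with a difference of exactly 0 in experiment 1 (25.22% of all genes) count in neither share. The part of such ties in this contrast was not tested. By the test 4.42% of all genes rose and 2.01% fell. DNA replication and mitosis had a larger share of falls (9.52%) and ribosome biogenesis a slightly larger share of rises (5.45%). The other groups named here had shares near or below those of all genes. Of 63 genes of DNA replication and mitosis, 45 were lower and 2 higher in both experiments, with a median log2 change of -0.16 (-0.15 and -0.16 in the 2 experiments). Of these 6 fell (9.52%), among them Pole of DNA polymerase ε at -0.34 (adjusted p = 0.022), cyclin F (Ccnf) at -0.31, the inhibitor of cyclin-dependent kinases Cdkn2d at -0.25 and the mitotic kinase gene Aurkb at -0.26 (-0.25 and -0.27, adjusted p = 0.026). None of the 6 passed without either untreated or either Dox+4μ8c array, 3 fell without Dox replicate 2 and 14 without Dox replicate 1. Cytosolic ribosomal proteins moved the other way: 31 of 41 were higher and none lower in both experiments, with a median of 0.06, and none was called. Ribosome biogenesis had 34 of 55 higher and 1 lower in both (median 0.09), and 3 rose, a number that was 0 without either untreated or either Dox+4μ8c array, 1 without Dox replicate 2 or the experiment term and 9 without Dox replicate 1. The respiratory chain had 34 of 68 lower in both experiments and 4 higher (median -0.04), the proteasome 25 of 42 and 2 (median -0.05), and splicing 29 of 65 and 4 (median -0.04). These shifts are smaller than the smallest change that was called, and members of a list share arrays, so that a list's direction counts as 1 observation per experiment. The median over all genes changed by 0.03 between the untreated and Dox arrays of experiment 2 and by 0.00 in experiment 1.

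**Figure D5:**
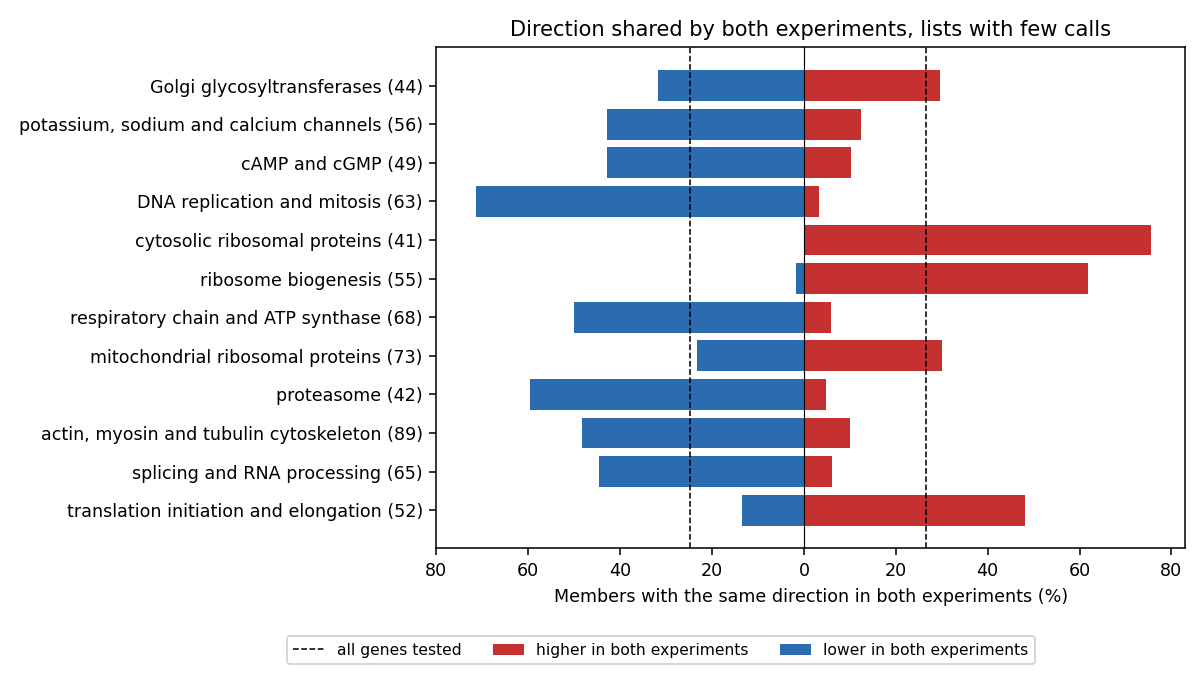
For some of the lists, the bars give the percent of tested members higher (to the right) and lower (to the left) with Dox in both experiments. Dashed lines give the percent over all genes (26.6% and 24.8%), and genes with a difference of exactly 0 in experiment 1 count in neither. Not all of these lists had few calls: 9.52% of DNA replication and mitosis fell and 9.62% of translation initiation and elongation rose, beside 2.01% and 4.42% of all genes. The latter list includes Xpot, the exportin for transfer RNA. Ribosomal proteins and ribosome biogenesis reach to the right, and DNA replication and mitosis, the proteasome and the respiratory chain to the left.

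Some functions that are often followed in stressed cells are given beside all genes, of which 4.42% rose and 2.01% fell. The share that rose was 4.44% for glutathione and NRF2 antioxidants, 4.44% for heat shock proteins and 4.62% for lysosome and autophagy. The share that fell was 2.22% for glutathione and NRF2 antioxidants and 4.44% for heat shock proteins. It was 6.9% for cholesterol synthesis and 1.85% for neurotransmitter and neuropeptide receptors, where none rose. Of 45 genes of glutathione and NRF2 antioxidants 2 rose and 1 fell (median -0.02). Of 45 heat shock proteins and chaperonin subunits, not all of them cytosolic, 2 rose and 2 fell, with Hspa13 at 0.55 and Bag3 at -0.25. Hspa13 alone passed without the experiment term, and also with the 4 untreated and Dox arrays alone. Of 65 genes of lysosome and autophagy 3 rose and none fell, with Stbd1 at 0.82, Atg13 at 0.48 and Wipi1 at 0.26, of which the last 2 did not pass without untreated replicate 1. Cholesterol synthesis had 2 falls among 29 genes, Ebp at -0.42 and Idi1 at -0.36, with 17 lower in both experiments, and neither passed without untreated replicate 2. Neurotransmitter and neuropeptide receptors had 1 call among 54, that of Npy1r. At an adjusted p under 0.05 no marker of exocrine acinar (8 tested), duct (4), fibroblast and stellate (4), endothelial (3) or leukocyte (5) cells was called, and of 7 β-cell markers Mafa and Iapp fell, neither of which passed without untreated replicate 1.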

How the data were processed

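Affymetrix rat 3′ IVT arrays were hybridized with RNA made from 200 ng of total RNA, per the labels. The authors made the deposited log2 values with RMA, per the labels, without a version, and gave them relative to a centre per probeset: the median of the 3 arrays of experiment 1 was 0 in 100% of 25476 probesets, and that of the 3 held here of experiment 2 in 0.836%. Of the probesets, 52 were controls, 7068 had no symbol, 378 had several and 17978 had 1. The last were averaged per gene (12603 genes, 3839 with several probesets, none filtered out). R 4.3.3 with limma 3.58.1 (functions lmFit and eBayes, two-sided tests, 3 groups with the experiment as a term, 2 residual and 4.25 prior degrees of freedom) gave SE and Benjamini-Hochberg adjusted p over all genes, and was checked on simulated data. Adjusted p is always that of limma. The experiment term follows the study's methods (2 independent experiments) and the centring. Alternatives were no such term, 4 arrays, centred arrays, other probeset rules, array weights and each array left out, and the closing section gives their effect. The number of arrays limits the precision.

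The comparison, the 47 functional and 8 marker lists, written from general knowledge, and the tests were chosen with earlier results of these data known. Lists were counted, not tested as sets. Named genes (259) were the 40 largest called rises and falls with the same sign in both experiments, the 4 smallest p of each list, the 3 largest rises with each promoter motif, Ins1, Ins2 and Gcg, and the 5 genes most different between the experiments. Motifs were searched in RefSeq promoters (GRCr8), which were matched to genes by Entrez gene ID. Protein features were not analysed here. Python 3.11.15, pandas 2.3.3, numpy 2.4.6 and matplotlib 3.10.9 made counts and figures.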

Additional observations from a re-analysis of the deposited data

How the results depend on the processing

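The 557 rises and 253 falls were 333 and 94 with the 4 untreated and Dox arrays alone, and 435 and 166 with array weights. Without the replicate block (the experiment term) they were 303 and 137, of which 290 and 130 were among the 557 and 253. Leaving out 1 array gave 177 to 1104 rises and 61 to 655 falls. The lone array of a group that lost its partner is assumed to vary like the others. Single probesets gave 164 falls, and 57 probesets at least 1.5 fold lower in place of 22 genes. The 22 were 17 when each experiment had to pass, 24 to 26 under the other settings on genes, 30 without replicate 2 and 70 without replicate 1. Leaving out the probesets with 3 values of 0 in experiment 1, an alternative chosen after seeing the data, gave 615 and 296. Of 185 named genes that were called, none changed direction in any of these fits, 91 did not pass without the replicate block, 65 without untreated replicate 1 and 58 without untreated replicate 2, and 59 passed in all fits on genes. The causes were not tested. With 2 arrays per group and centred values, signal over background cannot be given.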

Other observations

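Probesets without a gene symbol were part of the response. Of 7068 such probesets, 30 (0.424%) were at least 1.5 fold higher with Dox in each experiment and 9 (0.127%) at least 1.5 fold lower, compared with 131 (0.729%) and 28 (0.156%) of the 17978 with 1 symbol. The largest rises were those of 1393018_at, with log2 differences of 3.05 and 2.74 in experiments 1 and 2, and 1383434_at, with 2.26 and 2.52. The former is close to the largest change of any named gene, Trib3 at 2.95 and 2.81. The largest falls were those of 1386530_at, at -1.39 and -1.45, and 1393559_at, at -1.26 and -1.25. These values have no test, and the genes behind these probesets were not identified here.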
